A study of Drosophila melanogaster with 15 samples.

Results

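The annotation of transcription units deposited with a nascent transcription study of Drosophila melanogaster embryos held 256 microRNA genes, 1.45% of its 17698 genes. They were chosen by symbol alone, as genes whose symbol starts with mir-, plus let-7 and ban (bantam). These genes lay in 230 of the 15991 units (1.44%), where a unit is an entry of the annotation on one strand that lists 1 gene or several. A unit was called hosted when it also held genes of another kind (158 units with 184 microRNA genes) and microRNA-only when it did not (72 units with 72 microRNA genes). All 256 genes could be placed by a RefSeq record typed as microRNA, 254 by the same symbol and 2 (let-7 and ban) by a synonym, so the label holds for every member.

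The study read RNA held by engaged RNA polymerase (mNET-seq) in whole embryos at stage 15, sorted by sex. The groups are 4 male and 4 female samples with maternal mof knock-down through UAS-mof RNA interference, against 3 male and 4 female samples with a control RNA interference construct. MOF is the histone acetyltransferase of the dosage compensation complex, which increases transcription of X in males. The sources used here give neither the driver of the UAS transgene nor the line of the control construct. Every group carries an RNA interference construct, each preparation pooled 6000 embryos, and whether the replicates came from separate collections is not stated. No value of any sample was analysed, so library depths are unknown and no difference between the groups is given. The results below describe positions on genome build dm6, the map on which the nascent reads of microRNA genes would be counted. Shares are given beside those of all genes or units of the same map as a description, with no test.

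A microRNA gene is transcribed, mostly by RNA polymerase II, into a primary transcript that contains a hairpin. The nuclear enzyme Drosha cuts the hairpin out as the precursor, Dicer-1 cuts the precursor to the mature microRNA, and Argonaute-1 carries it to messenger RNAs that pair with its seed. Several hairpins can sit in one primary transcript, and a hairpin can also lie inside a gene with a product of its own, the host. What nascent RNA sequencing reports for a microRNA gene therefore depends on the bounds of its transcript, not only on those of its hairpin.

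The annotated microRNA gene was the hairpin, not the transcript. The genes were 50 to 174 bp long, with a median of 92 bp. The 72 microRNA-only units all had exactly the bounds of the RefSeq precursor gene, with a median length of 94.5 bp. The shortest were mir-9379 on 2R (57 bp), mir-9369 on X (62 bp), mir-9385 on 4 (63 bp), mir-312 on 2R (66 bp) and mir-318 on 3R (68 bp). The longest were mir-989 on 2R (174 bp), mir-956 on 3L (148 bp), mir-4978 on 2R (147 bp), mir-4966-1 on X (127 bp) and mir-307b on 2R (120 bp). For these 72 genes the map thus gives a precursor and no start of transcription.

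Hosted units were far longer, with a median of 11094.5 bp against 1817 bp for all 15991 units. A unit with a protein-coding gene held 139 microRNA genes (127 units, median 14032 bp). A further 45 lay in 31 units with non-coding genes only (median 5739 bp). Joint units are long in general: those with a protein-coding gene and no microRNA gene had a median of 10054 bp (965 units). Lengths above 50 kb were reached by 16 of the 158 hosted units (10.1%), against 16.2% of those 965 joint units and 1.97% of all units. The 5 longest hosted units were those of mir-1010 with SKIP and Gld2 on 3R (162297 bp), mir-4944 with hth on 3R (132008 bp), mir-4964 with rdgA and CG43255 on X (122409 bp), mir-9371 with Glut4EF on 3R (120684 bp) and mir-iab-8 with the non-coding RNA iab-8 on 3R (92116 bp). The 5 shortest were those of mir-985 with CR46211 on X (498 bp), mir-2280 with c-cup on 2L (939 bp), mir-4911 with ND-23 on 3R (1070 bp), mir-14 with CR43651 on 2R (1097 bp) and mir-4918 with tex on 3R (1173 bp).

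Most hosted microRNA genes lay wholly inside the span of another gene of the same strand. A protein-coding gene contained 135 of the 256 (52.7%), and only non-coding genes contained 46 (18.0%). The remaining 3 hosted genes stuck out of their host at the start of the unit, so that the hairpin itself set the unit's start. These were mir-11182 with CG5726 on 2R, mir-4942 with ND-MLRQ on 3L and mir-9381 with CR31451 on 3R. Exon positions were not used here, so a hairpin inside a gene is not called intronic or exonic. Small RNA genes differ widely in this respect in the same map: units with no gene of another kind held 28.1% of the microRNA genes, 5.43% of 258 snoRNA genes and 79.8% of 312 tRNA genes.

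All 3 listed heterochronic microRNAs lay in a non-coding gene, against 18.0% of all 256 microRNA genes and 44.0% of the 84 whose symbol has a number below 400 or none. As the 3 share 1 unit, they are 1 case and not 3 separate ones. The let-7 complex on 2L joined mir-100, let-7 and mir-125 in the unit of let-7-C (18455717 to 18473132, plus strand, 17416 bp). let-7 times the larva-to-adult transition, and the same primary transcript yields the other two. The 3 hairpins spanned 991 bp near the unit's end: mir-100 began 15717 bp, let-7 16317 bp and mir-125 16598 bp from the unit's start. Bantam, which promotes growth and represses the cell death gene hid, lay at 642208 to 642288 on 3L, 13773 bp inside the CR43334 unit of 15466 bp.

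Of the 6 listed microRNAs of growth and cell death, bantam included, 4 lay in non-coding genes and 2 in protein-coding genes. Non-coding genes contained 18.0% of all 256 microRNA genes. They contained 44.0% of the 84 with a number below 400 or none, to which all 6 belong. With 6 genes the count shows nothing particular to this list. mir-14, a suppressor of cell death, began 918 bp inside its unit, and mir-9a, which limits sensory organ precursors, 2495 bp inside the CR45916 unit. mir-8, a regulator of growth, began 2337 bp inside the CR43650 unit. mir-11 began 38300 bp inside E2f1, the cell cycle transcription factor gene, 475 bp from mir-998. mir-278 began 43212 bp inside CG42524, and its hairpin ended 51 bp before the end of that unit.

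The muscle microRNA mir-1 lay in the CR45361 unit on 2L (3150 bp), where its hairpin ended 17 bp before the unit's end. mir-133, whose vertebrate relative is transcribed together with mir-1, was a microRNA-only unit on the same arm and strand (20616617 to 20616714), against 20487441 to 20487531 for mir-1. Among the neural microRNAs, mir-124 lay in the CR45919 unit, 82 bp before its end (5739 bp). mir-7 began 18516 bp inside HnRNP-K, an RNA-binding protein gene, on 2R. mir-279 and mir-996 shared the CR31044 unit on 3R and stood 1499 bp apart. mir-263b began 567 bp inside meru on 3L. Its relative mir-263a appears under the symbol bft, which the rule leaves out, in a joint unit of 18895 bp on 2L.

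Some hairpins stood at the very end of their unit. In 9 of the 184 hosted genes the hairpin ended at most 100 bp before the unit's end. These 9 included mir-1 (17 bp), mir-275 (40 bp), mir-184 (50 bp), mir-124 (82 bp) and mir-13b-1 (88 bp), all in non-coding hosts, and 4 with protein-coding hosts. At the other end, 9 hosted genes began at most 100 bp from the unit's start, 4 of them in non-coding host units.

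The K-box family, which shares a seed that pairs with the K-box motif of target messenger RNAs, was spread over 7 units on 4 arms. All 13 listed members were hosted, 7 in protein-coding and 6 in non-coding genes, against 184 hosted of all 256 microRNA genes. As they share 7 units, they are not 13 separate cases. spi, which encodes a ligand of the EGF receptor, held mir-2b-2, mir-2a-1 and mir-2a-2 on 2L, at 7051 bp, 7343 bp and 7754 bp from the start of its 9416 bp unit. mir-2b-1 lay in Btk29A, a tyrosine kinase gene on the same arm, 42387 bp from the start and 243 bp from the end. The CR45911 unit on 3R (3391 bp) held mir-2c, mir-13a and mir-13b-1, the nearest to the start 2865 bp inside.

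Members of one family could have unlike hosts. mir-13b-1 lay in a non-coding unit on 3R and mir-13b-2 on X, 1717 bp inside CCT2, a chaperonin subunit gene. mir-308 lay 763 bp inside the ribosomal protein gene RpS23 on 2R, whose unit measured 1532 bp. mir-276a and mir-276b had hosts of 43950 bp (CR46006) and 13923 bp (CR46004) that followed each other on 3L with a gap of 2900 bp, which left the hairpins 45344 bp apart. mir-31a was a microRNA-only unit on 2R and mir-31b lay in a 76084 bp joint unit on X. How the authors placed reads that fit more than one hairpin is not stated in the labels.

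Homeotic microRNAs lay in non-coding units of the homeotic complexes on 3R. mir-10, next to the Antennapedia complex genes, began 6797 bp inside the CR42651 unit (7584 bp). mir-iab-4 and mir-iab-8 of the bithorax complex, which repress Ubx, had the same 68 bp on opposite strands (16856275 to 16856342). mir-iab-4 began 6271 bp inside the iab-4 unit on the plus strand, and mir-iab-8 66889 bp inside the iab-8 unit on the minus strand.

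Clusters were built by joining units of one strand that lay at most 10 kb apart. This gave 25 clusters of 2 or more microRNA genes, with 87 genes in all (34.0% of the 256), and 169 single genes. In 11 clusters all members shared 1 unit, and 14 clusters joined several units. The 25 comprised 16 clusters of hosted units only, 6 of microRNA-only units only and 3 of both kinds. With the hairpins' own positions in place of the units, 22 clusters with 79 genes remained. One pair lost in this way was that of mir-276b and mir-276a, whose hosts lie close while the hairpins do not.

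**Figure D1:**
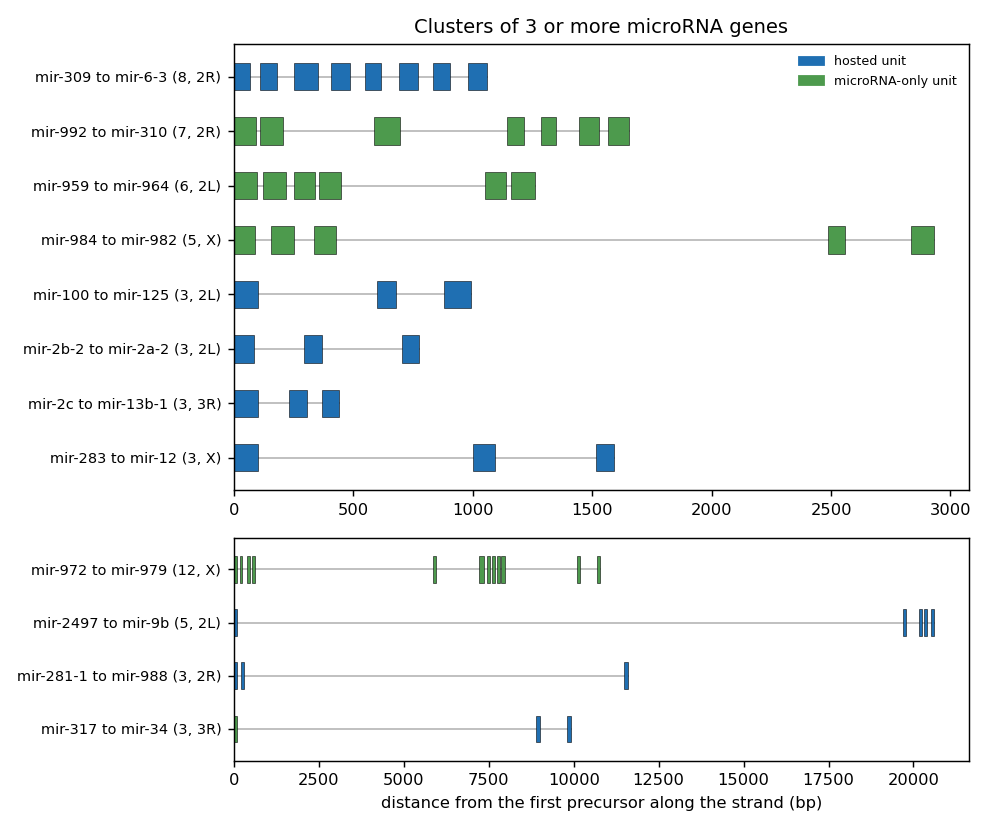
Positions of the hairpins in the 12 clusters of 3 or more microRNA genes, as distance in bp from the first hairpin along the strand (upper panel, shorter spans; lower panel, longer spans; box width is hairpin length). Blue boxes lie in hosted units and green boxes are microRNA-only units; the number of genes and the arm stand beside each name, and the 12 genes from mir-972 to mir-979 on X fall into groups of close hairpins.

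The 12 clusters of 3 or more genes held 61 genes. The largest lay on X, with 12 microRNA-only units over 10780 bp on the plus strand (19551152 to 19561931): mir-972, mir-9369, mir-973, mir-974, mir-2499, mir-4966-1, mir-4966-2, mir-975, mir-976, mir-977, mir-978 and mir-979. Neighbouring hairpins were 30 to 5229 bp apart. The second X cluster of this kind ran on the minus strand from mir-984 through mir-983-2, mir-983-1 and mir-303 to mir-982 (4365806 to 4368735, 2930 bp). On 2L, mir-959 to mir-964 followed each other over 1262 bp on the plus strand, 18 to 600 bp apart. On 2R, mir-992, mir-991, mir-2498, mir-313, mir-312, mir-311 and mir-310 spanned 1654 bp of the minus strand. These 4 clusters held 30 of the 72 microRNA-only units, and the map gives none of them a transcript that joins their members.

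The mir-309 cluster on 2R, which is known for clearing maternal messenger RNAs when the zygotic genome is switched on, stood in contrast. Its 8 hairpins (mir-309, mir-3, mir-286, mir-4, mir-5, mir-6-1, mir-6-2 and mir-6-3) shared the CR44504 unit of 2203 bp on the minus strand (19659645 to 19661847). They lay 42 to 73 bp apart over 1059 bp, with mir-309 73 bp and mir-6-3 1052 bp from the start. This unit held the most microRNA genes of any.

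Another cluster joined the her unit (mir-2497) with the unit of squ, grp and CG33552 on 2L, 362 bp further. The checkpoint kinase gene grp contained mir-9c, mir-306, mir-79 and mir-9b, which began 17870 to 18690 bp from the unit's start. Gmap, a Golgi protein gene on X, held mir-283, mir-304 and mir-12 at 21034 bp, 22037 bp and 22551 bp from the start of its 24302 bp unit. Prp8, a core splicing factor gene, and Oda, the antizyme of ornithine decarboxylase, formed a cluster on 2R through a gap of 3296 bp. Prp8 held mir-988, and Oda held mir-281-1 and mir-281-2, 128 bp apart.

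The 3 microRNAs linked to ageing and metabolism on 3R were split by the map. mir-277 and mir-34 shared the CR43459 unit (7596 bp, plus strand), 814 bp apart. mir-317 was a microRNA-only unit that ended 2543 bp before that unit began. A similar break separated mir-275, whose CR43857 unit ended on 2L just past the hairpin, from mir-305, which began 39 bp later as a microRNA-only unit. On X, mir-969 and mir-210 were microRNA-only units 3768 bp apart.

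Upstream neighbours of the microRNA-only units were examined in the same way. The nearest unit upstream on the same strand held microRNA genes for 30 of the 72. For the other 42 it did not, and the median gap was 4090 bp, against 2934 bp for all units. The medians are not like for like. The first leaves out the 30 units whose upstream neighbour held microRNA genes, with gaps from 18 to 8058 bp. The second has no such exclusion. In 11 of these 42 the gap was at most 1000 bp. The smallest were 12 bp from CR45478 to mir-2496 on X, 13 bp from CG18367 to mir-4983 on 2R, 45 bp from CG6543 to mir-9379 on 2R, 50 bp from CR43614 to mir-984 on X and 54 bp from CG12009 to mir-955 on 3L. In 15 of the 42 the gap was over 10000 bp, up to 98100 bp for mir-2490 on 2L. The shares of all units with such short or long gaps were not counted. A start on the opposite strand lay at most 500 bp upstream of 2 microRNA-only units (2.78%), against 24.4% of all units. The share was 16.7% for units with a tRNA gene. It was 11.8% for those with a long non-coding RNA gene and no protein-coding gene. The start of a microRNA-only unit is the hairpin's edge, so its share says nothing about the start of transcription.

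By chromosome, X held 55 of the 256 microRNA genes (21.5%), against 15.1% of all genes. The arms 2L and 2R held 55 each, 3R 58, 3L 31 and the small chromosome 4 held 2. Per 1000 annotated genes this was 20.6 on X, 18.0 on 4, 15.7 on 2L, 15.2 on 2R, 13.8 on 3R and 8.97 on 3L. Chromosome Y held 0 of its 113 genes. Both microRNA genes of chromosome 4, mir-954 (626126 to 626212, plus strand) and mir-9385 (400703 to 400765, minus strand), were microRNA-only units.

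**Figure D2:**
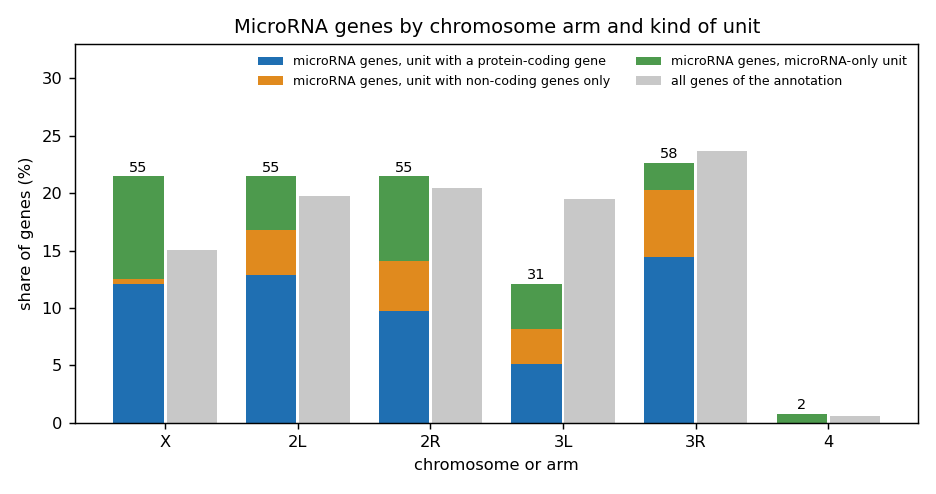
Share of genes in % on each chromosome or arm, with stacked bars for microRNA genes by kind of unit (256 genes, number above each bar) beside grey bars for all genes of the annotation. X holds 21.5% of the microRNA genes and 15.1% of all genes, and its stack has a large microRNA-only section and almost no section for non-coding hosts.

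The X members differed in kind from the autosomal ones in these counts, which were not tested. On X, 23 of 52 units were microRNA-only, 28 had a protein-coding host and 1 had a non-coding host. On the autosomes, 49 of 178 were microRNA-only, 99 had a protein-coding host and 30 a non-coding host. The single unit on X with non-coding genes only was that of CR46211, with mir-985. A second X gene, mir-31b, lay inside a non-coding gene (CR43836), in a unit that also has protein-coding genes. Across the map, 11.9% of units with a long non-coding RNA gene and no protein-coding gene lay on X, against 3.23% of non-coding host units (1 of 31). Of the 23 microRNA-only units on X, 17 belonged to the clusters of mir-972 and mir-984. On the autosomes 14 of 49 belonged to clusters of 3 or more genes. When each cluster was counted once, X held 35 of 194 loci (18.0%).

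Protein-coding hosts on X had a median unit length of 20164 bp (1924 to 122409 bp), against 11864 bp (939 to 162297 bp) on the autosomes. Units with a protein-coding gene but no microRNA gene had medians of 2652 bp for X and 2145 bp for the autosomes. Hosts on X included neuronal genes such as Appl, the amyloid precursor homologue (mir-4960, 39402 bp inside a 48544 bp unit), and Tomosyn, a regulator of synaptic vesicle release (mir-970, 4731 bp inside). trol, which encodes perlecan (mir-4955, 74951 bp unit), the kinase genes Tlk (mir-4962, 69764 bp) and Drak (mir-2492, 61911 bp), and fog, a ligand gene of gastrulation (mir-2491, 30878 bp), were among the long ones. Dredd, a caspase gene of the immune response (mir-9372, 1924 bp), was the shortest. These hosts were picked as examples after their values were seen.

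Some hosts act in dosage compensation or sex determination themselves. Of 14 listed genes of these pathways, 3 shared a unit with a microRNA gene, against 230 of all 15991 units (1.44%). The list was drawn up with earlier results of these data known, so this count says nothing particular to these pathways. msl-2, whose protein restricts the male complex to males, contained mir-4971 on 2L (3463290 to 3463400, minus strand), 2712 bp from the start and 1072 bp from the end. Sxl, the female switch gene that blocks msl-2, contained mir-4956 on X (7085737 to 7085853, minus strand), 12200 bp from the start of a unit with 26 transcripts. her contained mir-2497 on 2L, 1055 bp from its start. Outside the list, ssx on X, the sister gene of Sxl, contained mir-4961, 3043 bp from its start. The units of mof, msl-1, msl-3, mle, roX1, roX2, Clamp, tra, tra2, dsx and fru held no microRNA gene.

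Mirtrons are microRNAs whose precursor is a short spliced and debranched intron, so that they need no Drosha. All 15 listed members (mir-1003 to mir-1017) were found, in 15 units. All lay inside protein-coding genes, against 52.7% of all 256 microRNA genes. Since mirtrons are by definition short introns, their place in a host gene and their short length follow in part from that definition. Their genes measured 54 to 71 bp with a median of 61 bp, against 50 to 174 bp with a median of 94 bp for the other 241 microRNA genes. Some of the 241 were shorter still, such as mir-9370 (50 bp) and mir-9377 (52 bp), both inside protein-coding genes. Whether any of the 241 are mirtrons was not examined. Among the 15, the smallest was mir-1011 (54 bp) in Ir93a, an ionotropic receptor gene. The largest were mir-1010 and mir-1017 (71 bp each), the second in the acetylcholine receptor gene nAChRalpha2. Their distance to the unit's start ran from 514 bp for mir-1008 in CG18004 to 159049 bp for mir-1010 in SKIP, with a median of 3445 bp. Other hosts were wts, the Hippo pathway kinase gene (mir-1013, 14923 bp inside), the mitochondrial fusion gene Opa1 (mir-1016, 2262 bp inside) and VhaSFD, a proton pump subunit gene (mir-1006, 2968 bp inside). Of the 15 listed mirtrons, a single one, mir-1007 in CG1718, lay on X.

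Numbers in microRNA symbols were given out roughly in order of registration, but a homologue or antisense locus takes the number of the family member named first, as with mir-307b and mir-375. The ranges below are therefore ranges of the symbol's number, not of the time of discovery. The 84 genes with a number below 400 or with none lay in non-coding genes in 37 cases (44.0%), in protein-coding genes in 25 (29.8%) and in microRNA-only units in 22 (26.2%). Of the 67 genes in the middle range, numbered 927 to 1017, 7 lay in non-coding genes (10.4%), 31 in protein-coding genes (46.3%) and 29 in microRNA-only units (43.3%). Of the 105 genes numbered 2000 and above, 2 lay in non-coding genes (1.90%), 79 in protein-coding genes (75.2%) and 21 in microRNA-only units. The other 3 are those that stuck out of their host. This grouping was chosen after the symbols were seen. The 15 listed mirtrons are 15 of the 31 middle-range genes in protein-coding genes. The middle share of 46.3% therefore rests in large part on them, and an even rise over the ranges is not claimed. Mirtrons outside the list were not counted, so their part in the 75.2% of the highest range is not known.

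**Figure D3:**
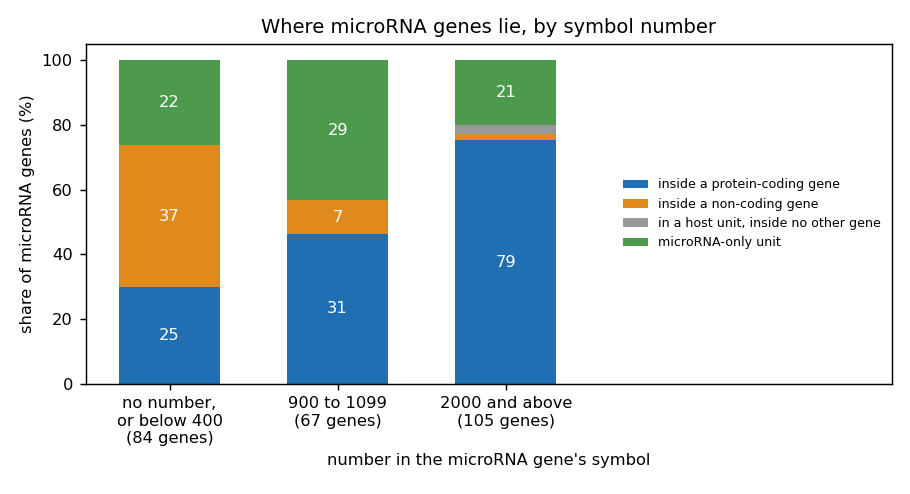
Share of microRNA genes in % that lie inside a protein-coding gene, inside a non-coding gene, in a host unit but inside no other gene, or in a microRNA-only unit, for 3 ranges of the number in the symbol (counts in the bars). The section for protein-coding genes is 29.8% in the lowest, 46.3% in the middle and 75.2% in the highest range. Of the 31 genes in that middle section, 15 are the listed mirtrons, and mirtrons outside the list were not counted in any range.

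The same ranges were unevenly placed on X. Of the 55 microRNA genes on X, 28 had numbers of 2000 and above, 20 numbers of the middle range, and 7 lower numbers or none. The 201 autosomal genes comprised 77, 47 and 77 of these. Units with non-coding hosts only and low numbers were both few on X, and how much of the one goes with the other was not tested.

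The place of the hosted microRNA genes inside their units was measured from the unit's start. The median distance from the unit's start to the hairpin was 5678 bp over 184 genes, and 139 (75.5%) began over 1000 bp inside, 95 over 5000 bp and 14 over 50 kb. In units with a protein-coding gene the median was 6867 bp (139 genes), and in non-coding host units 2337 bp (45 genes, of which 8 share the mir-309 unit). The hairpin's middle stood at a median of 65.0% of the unit's length. With each unit cut into 3 equal stretches, 51 hairpins lay in the stretch nearest the start, 43 in the middle one and 90 in the one nearest the end. The median distance to the unit's end was 2291 bp. Hosted units had a median length of 11094.5 bp, and most places in a unit of that length lie over 1000 bp from its start. Hairpins that share a unit are not separate cases, and the same shares were not counted for other genes in joint units.

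The 5 hosted genes farthest from a start were mir-1010 in SKIP (159049 bp), mir-4944 in hth, a homeodomain gene (126435 bp), mir-9371 in Glut4EF (114439 bp), mir-967 in bun (86511 bp) and mir-2281 in cv-c (85212 bp). Each of the 5 lay 3177 to 6184 bp from the unit's end, at 94.7% to 98.0% of its length. The choice by distance from the start favours such late places, and the median over all 184 hosted genes was 65.0%. A unit's start is the outermost annotated start. mir-987 on 2R, for example, lay 76351 bp from the start of its unit, but the unit joins 4 other genes, of which CG13739, CG13954 and the non-coding CR45918 each contain the hairpin and start at different places.

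**Figure D4:**
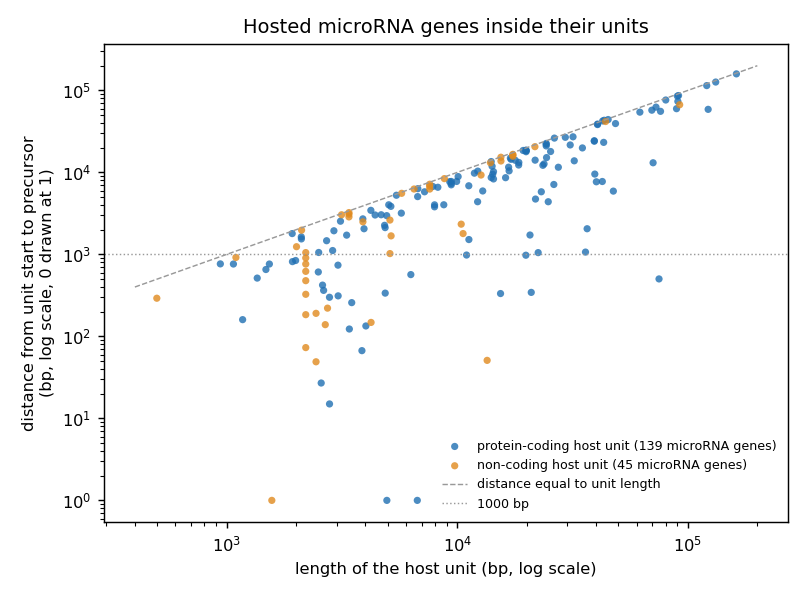
Distance in bp from the start of the unit to the hairpin (vertical, log scale, 0 drawn at 1) against the length of the unit in bp (horizontal, log scale) for 184 hosted microRNA genes, by kind of host; the dashed line marks equal values and the dotted line 1000 bp. Of the points, 139 lie above 1000 bp, many close to the dashed line, and the vertical column of non-coding hosts up to 1052 bp is the mir-309 unit.

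Units on the opposite strand matter here because the labels speak of coverage summed over both strands. An overlap of at least 1 bp with an opposite-strand unit was found for 91 of the 230 units (39.6%), against 39.1% of all units. The hairpin itself lay under an opposite-strand unit for 37 of 256 genes (14.5%). These were 27 of 72 microRNA-only genes (37.5%) and 10 of 184 hosted genes (5.43%). For snoRNA genes this share was 4.26% and for tRNA genes 27.6%. All 27 microRNA-only units were covered over their whole length, 26 of them by a unit with a protein-coding gene. Wholly covered were 27.0% of units with a tRNA gene and 11.1% of all units. As microRNA-only units measure 57 to 174 bp, an overlap easily takes in the whole unit. An opposite-strand unit with a protein-coding gene overlapped 36.1% of the 72, against 34.7% of all units. The 37.5% with any overlap is close to the 39.1% of all units.

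Several clusters lay wholly or partly opposite another gene. All 6 genes from mir-959 to mir-964 lay opposite DIP-theta, a neuronal surface protein gene (joint unit of 32270 bp), 16359 to 17523 bp from its start. On X, mir-983-1, mir-983-2 and mir-984 lay opposite CG3626, at 1892 to 2229 bp from its start. mir-978 and mir-979, at the end of the largest cluster, lay opposite Grip84, a gamma-tubulin complex gene, and the 10 other members had no opposite-strand unit over them. mir-980 and mir-4957 lay 469 bp and 475 bp from the start of the opposite unit, that of CG3777 and that of the topoisomerase gene Top1. mir-289 on 3L lay opposite the longest such unit, that of bru3 (281494 bp), and mir-87 on 2L opposite CR45949, the single non-coding partner among the microRNA-only units.

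**Figure D5:**
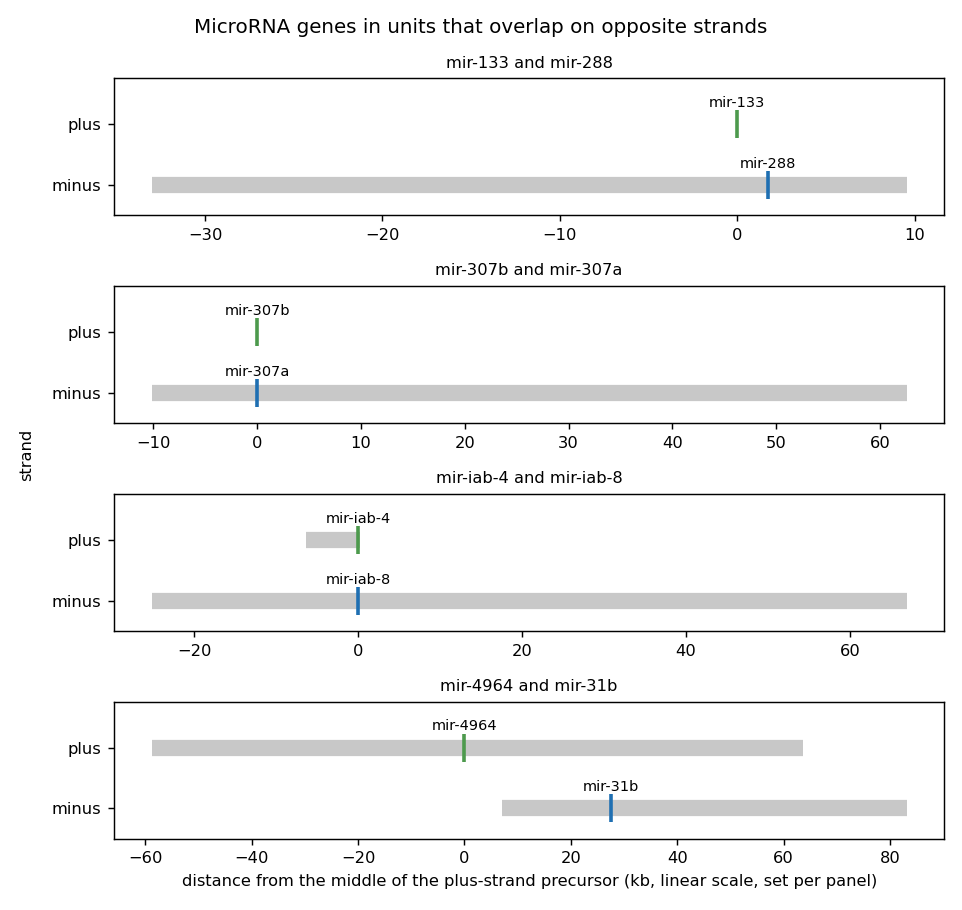
The 4 pairs of microRNA genes whose units overlap on opposite strands, with units as grey bars and hairpins as ticks (green plus strand, blue minus strand) against distance in kb from the middle of the plus-strand hairpin; strands run down each panel and each panel has its own scale. The hairpins of mir-iab-4 with mir-iab-8 and of mir-307b with mir-307a coincide, and the other pairs stand 1651 bp and 27392 bp apart.

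In 4 pairs both overlapping units held a microRNA gene. mir-iab-4 and mir-iab-8 shared all 68 bp, and the iab-4 unit (6494 bp) lay wholly opposite the iab-8 unit. mir-307b, a microRNA-only unit of 120 bp on 2R, covered all 88 bp of mir-307a, which lay 62520 bp inside the matrix metalloproteinase gene Mmp2. mir-133 lay opposite the joint unit of mir-288, and their hairpins stood 1651 bp apart. mir-4964 in rdgA and mir-31b on X lay in units that overlapped over 56569 bp, with the hairpins 27392 bp apart. The hairpin of mir-31b lay under the rdgA unit, while that of mir-4964 had no opposite-strand unit over it.

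Hosted units could be covered over most of their length while the hairpin was free. mir-252 in CR17025, typed as an antisense RNA gene, had 81.9% of its unit under CG14372, but its hairpin lay outside the overlap. Wholly or nearly covered were the units of mir-iab-4 (100%), of mir-1000 with CR45910 opposite msi (100%), of mir-31b (99.0%) and of mir-4945 with sals (98.3%), and in these 4 the hairpin lay in the overlap. mir-2491 in fog (73.8% covered) lay 1041 bp from the start of the opposite unit of CG42346.

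The genes that make and use microRNAs mostly stood alone in their units, as is usual in this map. Of 14 listed genes, 13 stood alone in their unit, where 1144 of all 15991 units were joint. The units of 0 held a microRNA gene, against 1.44% of all units. A single one lay on X, against 15.0% of all units. These counts show nothing particular to the list. drosha on 2R (4412 bp) and Dcr-1 on 3R (7085 bp) encode the nuclear and cytoplasmic enzymes, with opposite-strand starts 49 bp and 59 bp upstream. pasha, the RNA-binding partner of Drosha, shared a 46670 bp unit with kek6 on 3R. Ranbp21, the exportin of precursors, was the X member (19646306 to 19652269, 5964 bp), 36 bp from the start of CG14215. loqs, the partner of Dicer-1, measured 3020 bp and AGO1 14703 bp. gw, the silencing partner of Argonaute-1, lay on chromosome 4 (14063 bp).

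The list also held genes of the small interfering RNA branch and of end trimming. Dcr-2 measured 6547 bp, AGO2 6930 bp and r2d2 1952 bp. Hen1, the methylase of small RNA ends, had 5034 of its 7043 bp opposite CG8878. Nbr, which trims microRNA ends, measured 2448 bp and Tailor, which adds uridine to mirtron precursors, 2859 bp. ldbr, the lariat debranching enzyme that mirtrons need, measured 1789 bp. Opposite-strand units overlapped 9 of the 14, against 39.1% of all units and 39.7% of units with a protein-coding gene, from 1 bp at Dcr-2 to the 5034 bp at Hen1.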

How the data were processed

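The members and gene lists were chosen with earlier results of these data known. The annotation was exported by the authors through rtracklayer 1.48.0, per the file headers. The deposited positions, in bp on genome build dm6 per the submitters' processing notes, are of another kind than measurements and hold no value of any sample. The rule by which genes were joined into units is not stated in the labels. Hairpin positions and gene types come from a RefSeq gene table of the same assembly (Release 6 plus ISO1 MT). Of its 262 microRNA genes, 256 met the rule, 1 has another symbol and the 5 mir-10404 copies were not analysed here. Clusters join units of one strand at most 10 kb apart, an overlap is at least 1 bp, and distances run to the hairpin's near end. Counts were made with Python 3.11.15. Only the functions for clusters, overlaps and distances were checked, on simulated intervals. No test was made. Sequences and seeds were not used here. Named were clusters of 3 or more genes, the 5 extreme units of each kind, the 5 farthest hairpins, units on 4 and Y, antisense pairs and listed genes; others named are examples seen first.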

Additional observations from a re-analysis of the deposited data

How the results depend on the processing

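No paired analysis was possible because no value of any sample was analysed and no result comes from a test. Shares were called moved when another setting fell outside their exact 95% binomial interval, counts when it differed by over 1.5 times. With bft added there were 257 microRNA genes. Units without a protein-coding host made up 44.8% when non-coding hosts did not count, against 31.3% microRNA-only, since the 31 non-coding host units then join them. X held 31.9% of microRNA-only units and 18.4% of hosted units, against 21.5% of genes, and 17.6% of genes without the largest X cluster. Of units, 31.3% overlapped an opposite-strand unit with a protein-coding gene and 12.6% were wholly covered, against 39.6% with any overlap, and 14.5% of hairpins were overlapped. Hosted hairpins over 5000 bp from the start made up 51.6%, those over 100 bp 95.1% and those over 1000 bp 75.5%. The settings on overlap and distance are stricter or looser by construction, whereas microRNA-only and hosted units are different subsets, and the cause of their different X shares was not tested. There were 23 clusters with a gap of 1 kb, 32 with 50 kb and 22 by hairpin position, against 25. The settings on seeds were not run, since no sequences were used here. Positions have no replicate error, and the map's own choice of bounds limits what they say.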
